A study of Mus musculus with 12 samples.

Results

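The set described here holds the genes of 3 axon guidance systems of the mouse: the ephrins and their Eph receptors, the Slits and their Robo receptors, and the netrins with Dcc, Neo1 and the Unc5 receptors. Members were picked by gene symbol, with earlier results of these data known, and 41 of the 21030 genes in the deposited count table matched. They were 9 EphA receptors, 5 EphB receptors, 5 ephrin-A ligands, 3 ephrin-B ligands, 3 Slits, 4 Robos, 4 netrins, 2 netrin-Gs and 6 netrin receptors.

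Ephrins are membrane-bound ligands. Those of the A class are held by a lipid anchor and those of the B class span the membrane, and contact between cells lets them signal to Eph receptor tyrosine kinases and also back into the cell that carries them. Slits are secreted proteins that repel growing axons through Robo receptors, and netrin-1 attracts axons that carry Dcc and repels axons that also carry Unc5 receptors. In the embryonic spinal cord the floor plate at the ventral midline secretes both netrin-1 and Slits, and commissural neurons are known for the switch from attraction to repulsion as their axons cross it.

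The cells were wild-type C57BL/6 mouse spinal cord cells taken at E12, dissociated with trypsin and grown for 48 hours in Neurobasal medium with B27. All wells carried poly-D-lysine (PDL), a positively charged polymer to which cells stick, at 20 μg/ml. The coats compared were PDL with laminin and myelin, PDL with myelin, PDL with laminin, and PDL alone, with laminin, an extracellular matrix protein that favours neurite growth, at 1 μg/ml and wild-type myelin membranes at 10 μg/ml. These are called Laminin + Myelin, Myelin, Laminin and PDL. RNA of each coat was sequenced as 3 replicate libraries, 12 in all, and the study's title places the question in whether adult myelin permits axon outgrowth from neural stem cells. Wells with myelin and no cells are not analysed here.

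The libraries held 36061511 to 45024091 reads assigned to genes, with 17870 to 19112 genes detected in each. Reads outside annotated genes took 8.46 to 19.4% of a library, and all 3 PDL libraries, at 17.4 to 19.4%, lay above all others. Summed neuronal markers stood at 8095 to 10426 counts-per-million (CPM) and neural progenitor markers at 468 to 981 CPM in the 12 libraries, so both kinds of cell were present on every coat. Summed markers of mature myelin stood at 261 to 442 CPM on Laminin + Myelin and 268 to 828 CPM on Myelin, against 57.3 to 81.4 CPM on Laminin and 59.6 to 73.8 CPM on PDL. Whether these transcripts came from the cultured cells or with the myelin membranes was not tested. The same holds for other genes that were higher on the coats with myelin. Labels call the replicates biological but do not say whether they came from separate litters or cultures, so p-values measure only the spread between these libraries. Libraries with the same replicate number deviated together, and tests blocked by that number are given beside those without it. The members' values by number are described last.

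At the level of whole systems, all 3 were expressed. The 40 members that passed the filter on low counts left out Ntn5 alone, a netrin with 0 to 8 reads per library. Levels per gene are given as CPM per kilobase of each gene's longest coding transcript (CPM/kb), the mean of 12 libraries with the lowest and highest library, so that genes of different length can be compared.

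Robo2 had the highest level of the set at 64.7 CPM/kb (56.6 to 73.1), and Robo1, the other main Slit receptor of spinal neurons, had 35.9 CPM/kb (30.7 to 41.3). Robo3, which in mice lets commissural axons reach and cross the midline, had 10.2 CPM/kb (6.50 to 15.0). Robo4, a receptor of blood vessel endothelium, had 0.0765 CPM/kb (0.0192 to 0.142), from 4 to 27 reads per library. Of the Robo ligands, Slit1 stood at 22.3 CPM/kb (18.3 to 26.9), Slit2 at 17.5 CPM/kb (12.9 to 22.7) and Slit3 at 4.92 CPM/kb (3.08 to 7.38). The ranges of Robo2 and Robo1 did not overlap, whereas those of Slit1 and Slit2 did.

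Ntn1, which encodes netrin-1, was the second most abundant member at 58.3 CPM/kb (45.1 to 85.3), and its range overlapped that of Robo2. The other netrins were far lower, with Ntn4, a basement membrane netrin, at 2.08 CPM/kb and Ntn3 at 1.03 CPM/kb. The netrin-Gs, lipid-anchored relatives that bind synaptic Lrrc4 family proteins and not Dcc, stood at 3.04 CPM/kb for Ntng1 and 1.64 CPM/kb for Ntng2. Among receptors, Neo1, which binds netrins and also repulsive guidance molecules, had 32.6 CPM/kb (29.3 to 36.4). Dcc, the attractive receptor, had 28.8 CPM/kb (23.2 to 34.5), and the repulsive receptor Unc5c had 23.4 CPM/kb (20.7 to 26.0). The remaining Unc5 receptors were lower, with Unc5d at 4.07, Unc5a at 3.48 and Unc5b at 0.825 CPM/kb.

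The ephrin-B ligands were led by Efnb3, a midline barrier ligand in the mouse spinal cord, at 40.4 CPM/kb (36.6 to 48.3). Efnb2, a ligand of neurons and arteries, had 26.4 CPM/kb (23.3 to 29.2), and Efnb1 had 12.0 CPM/kb (10.4 to 15.4). Of the ephrin-A ligands, Efna5 had 19.8 CPM/kb (17.5 to 22.3), Efna2 14.8 CPM/kb (12.5 to 17.0) and Efna3 12.0 CPM/kb (9.56 to 15.5). Efna4 had 3.63 CPM/kb, and Efna1 had 0.1997 CPM/kb, with 2 to 25 reads per library.

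The Eph receptors formed a broad upper group and a low tail. Epha7 at 20.6 CPM/kb (18.6 to 22.9), Ephb1 at 20.5 CPM/kb (15.1 to 25.4), Ephb2 at 18.9 CPM/kb (15.2 to 22.3), Epha5 at 18.1 CPM/kb (13.9 to 21.2) and Epha4 at 17.2 CPM/kb (15.1 to 20.0) all overlapped one another. Epha4, a receptor of motor axons and of spinal locomotor circuits, was the lowest of these 5. Ephb6, which lacks kinase activity, had 13.9 CPM/kb (10.7 to 17.9), and Epha3 had 6.03 CPM/kb (5.27 to 7.21). The rest of the Eph receptors lay lower, from Ephb3 at 4.08 CPM/kb down to Epha2 at 0.416 CPM/kb (0.0661 to 0.661) and Epha1 at 0.207 CPM/kb.

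The order of levels depends on the length used. Of the 10 members with the highest CPM/kb, 7 were also among the 10 highest without division by length, and 8 when the length was that of all merged exons, a measure chosen after the values were seen. Robo2 and Slit2 have 16983 and 25433 bases of merged exons, against 8591 and 9960 in the longest coding transcript. By merged exons Robo2 fell below Ntn1, and the ranges of Slit1 and Slit2 no longer overlapped. Exons of Efna3, Efna4 and Ntng2 overlap another gene over 14.1, 10.5 and 14.0% of their length, and exons of Epha1 over 6.01%. Whether the reads were counted by strand is not given in the sources used here, so reads of these overlaps cannot be assigned to 1 gene with certainty. Summed by role, the ephrin-Bs stood at 81.5 CPM/kb on Laminin + Myelin, 82.5 on Myelin and 78.6 on Laminin, against 72.5 on PDL. Summed Robo levels were 110.9, 112.1 and 108.4 CPM/kb on the same 3 coats, against 112.3 on PDL.

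**Figure D1:**
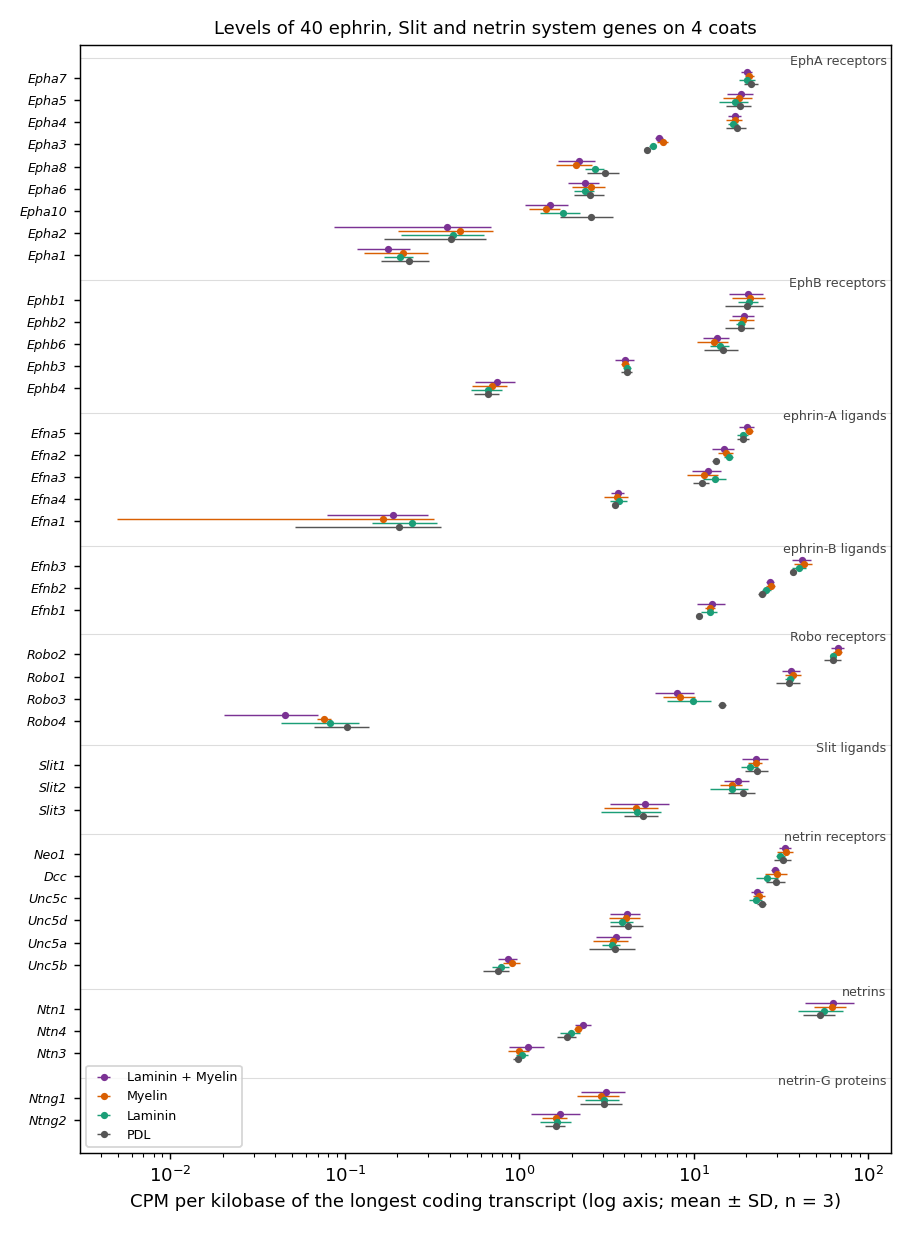
Levels of 40 members in CPM per kilobase of the longest coding transcript on a log axis, grouped by role, with the mean and SD of 3 libraries for each of the 4 coats; Ntn5 is not drawn. Robo2 and Ntn1 stand at the top, at 64.7 and 58.3 CPM/kb over all 12 libraries, and the 4 coats lie close together for most members.

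Set against PDL, the coats moved few members, and Robo3 alone was called on all 3 coats, in the edgeR fit blocked by replicate number. The Robo3 level in CPM was lower in all 9 libraries with laminin, myelin or both than in any PDL library. The share of all genes that separate in this way was not counted, here or for the members below. With the replicate number as a block, Epha10 also passed as lower and Epha3 as higher on both coats with myelin. Epha8 passed as lower on Myelin alone, and Ntn1 as higher on Laminin + Myelin alone. With edgeR's quasi-likelihood test without the block, no member passed an adjusted p of 0.05 in any comparison of coats. Over all 15737 genes tested the same rule called 1.25% of genes for Laminin + Myelin against PDL, 2.29% for Myelin against PDL and 0% for Laminin against PDL. At an unadjusted p under 0.05 the members numbered 5, 4 and 1 in these comparisons, beside 16.8, 17.5 and 17.4% of all genes. DESeq2 called 1, 2 and 0 members, Robo3 on both coats with myelin and Epha3 on Myelin, beside 6.23, 6.91 and 3.5% of all genes.

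Blocked by replicate number, the edgeR fit called 4 of 40 members for Laminin + Myelin against PDL, or 10.0%, where it called 13.6% of all genes. Of these, Epha3 and Ntn1 rose, against 4.3% of all genes, and Robo3 and Epha10 fell, against 9.26%. For Myelin against PDL it called 4 of 40 members against 14.4% of all genes. Epha3 was higher, against 4.37% of all genes, and Robo3, Epha10 and Epha8 were lower, against 10%. For Laminin against PDL it called Robo3 alone, which is 2.5% of the members against 8.15% of all genes. It was lower, against 5.48% of all genes, and no member was higher, against 2.66%. With all libraries the members' share was thus below that of all genes in each of the 3 comparisons. Whether the shares differ by more than so few members can show was not tested. Without Laminin + Myelin replicate 3 the order turned for Laminin + Myelin against PDL, at 2.5% of members against 2.2% of all genes. In the other blocked fits of that comparison without a library, the members' share stayed the lower. The median log2 fold change of the 40 members was 0.03, 0.01 and -0.00 for Laminin + Myelin, Myelin and Laminin against PDL, beside 0.02, 0.01 and 0.02 over all genes. All 3 comparisons share the PDL libraries, so they are not independent of each other.

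Among the members called against PDL with the block, Ntn1 had no RefSeq promoter entry. The promoters of the 4 others, all Eph or Robo genes, are shown. They come from RefSeq on GRCm38.p6, from 250 bases before the start of transcription to 50 bases after it, and are written 5′ to 3′ on the strand of the gene. Capitals mark every match to TAATTA, a core of homeodomain binding motifs, to TATAAA, the TATA box, to GGGCGG, the GC box, and to CCAAT, or to the reverse complement of each. Robo3 is read from the minus strand at chr9:37433126-37433425, Epha10 from the plus strand at chr4:124881535-124881834, Epha8 from the minus strand at chr4:136956767-136957066 and Epha3 from the minus strand at chr16:63864126-63864425.
Robo3: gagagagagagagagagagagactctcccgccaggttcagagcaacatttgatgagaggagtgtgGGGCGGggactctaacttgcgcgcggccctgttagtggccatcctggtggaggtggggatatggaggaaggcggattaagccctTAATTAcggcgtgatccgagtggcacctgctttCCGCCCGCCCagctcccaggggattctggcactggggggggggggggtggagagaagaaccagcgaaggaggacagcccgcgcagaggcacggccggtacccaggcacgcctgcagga
Epha10: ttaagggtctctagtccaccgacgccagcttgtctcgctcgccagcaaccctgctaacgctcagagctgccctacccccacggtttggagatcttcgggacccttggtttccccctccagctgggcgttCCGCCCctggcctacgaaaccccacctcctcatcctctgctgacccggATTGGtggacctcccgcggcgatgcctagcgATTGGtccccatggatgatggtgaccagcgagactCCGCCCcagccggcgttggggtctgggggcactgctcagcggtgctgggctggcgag
Epha8: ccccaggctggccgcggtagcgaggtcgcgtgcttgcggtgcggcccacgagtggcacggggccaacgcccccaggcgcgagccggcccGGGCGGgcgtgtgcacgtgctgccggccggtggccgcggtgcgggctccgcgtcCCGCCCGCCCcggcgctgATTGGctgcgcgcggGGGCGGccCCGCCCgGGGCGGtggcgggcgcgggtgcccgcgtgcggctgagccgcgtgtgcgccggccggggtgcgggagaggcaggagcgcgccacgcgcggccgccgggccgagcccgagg
Epha3: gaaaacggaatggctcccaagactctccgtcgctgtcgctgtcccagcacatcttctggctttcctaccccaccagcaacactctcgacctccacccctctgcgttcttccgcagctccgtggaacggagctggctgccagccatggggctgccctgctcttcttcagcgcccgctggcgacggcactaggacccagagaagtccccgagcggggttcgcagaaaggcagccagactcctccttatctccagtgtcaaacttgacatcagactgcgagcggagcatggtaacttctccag
The Robo3 window held 4 matches, 1 of them TAATTA, the Epha10 window held 4 and the Epha8 window 7, and the Epha3 window held none. A RefSeq promoter was found for 36 of the 41 members. TAATTA was in those of 3 members, Robo3, Epha5 and Efna1, or 8.33%, against 6.12% of 27025 genes with windows of the same length. GGGCGG on either strand was in 69.4% of members against 38.2% of genes, and CCAAT in 41.7% against 41.1%. These motifs were chosen after the expression values were seen, and a match describes the letters only.

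Robo3 (Entrez 19649) lies on the minus strand of chromosome 9 at 37415669-37433246 in GRCm38, next to Robo4, and its counts ran from 1145 to 2752 reads per library. It had 31.2, 34.3 and 49.6 CPM in the 3 Laminin + Myelin libraries, 38.7, 32.6 and 49.3 CPM in the Myelin libraries, and 31.8, 53.4 and 56.1 CPM in the Laminin libraries. In the PDL libraries it had 71.7, 72.1 and 65.3 CPM. No coated library reached the lowest PDL library, and the coated groups overlapped one another. In bulk samples such as these, fewer cells that express a gene and less RNA per cell cannot be told apart.

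The log2 fold change of Robo3 with the block was -0.90 ± 0.17 (SE) for Laminin + Myelin against PDL, with an adjusted p of 0.0093 in edgeR. For Myelin it was -0.82 ± 0.17 with an adjusted p of 0.0110, and for Laminin -0.60 ± 0.17 with an adjusted p of 0.0495. Without the block these were -0.86 ± 0.23, -0.79 ± 0.23 and -0.57 ± 0.23, with adjusted p-values of 0.0864, 0.0967 and 0.245. The authors' deposited table gives Robo3 as -0.86 with an adjusted p of 0.0064 for the coat with laminin and myelin and as -0.79 with 0.0121 for myelin. For laminin without myelin that table gives -0.56 with an adjusted p of 0.256. Robo3 was the only member under 0.05 in its comparisons with PDL.

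The size of the Robo3 difference varied with the replicate number. Within number 3 it was -0.40, -0.41 and -0.22 on the log2 scale for Laminin + Myelin, Myelin and Laminin, within number 2 it was -1.07, -1.15 and -0.43, and within number 1 it was -1.20, -0.89 and -1.17. All 9 differences were below 0. The Laminin difference was thus above 1 log2 unit in size in replicate 1 alone. With the block, the Robo3 call held in 3 of 6 fits that left out a library for Laminin + Myelin, with adjusted p-values up to 0.0761, and failed when PDL replicate 1 or 2 or Laminin + Myelin replicate 2 was left out. For Myelin it held in 3 of 6, up to 0.103, and failed when PDL replicate 1 or 2 or Myelin replicate 2 was left out. For Laminin it held in 2 of 6, up to 0.244, and failed when PDL replicate 1 or 2 or Laminin replicate 1 or 3 was left out. The shares of all genes called moved as well in these fits. They ran from 0.0877 to 14.2% for Laminin + Myelin, 0.997 to 15.2% for Myelin and 0 to 15.5% for Laminin. No gene passed for Laminin without PDL replicate 1 or 2. The calls of other members given below without 1 library come from the same fits.

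Values of other kinds were set beside Robo3. The share of reads outside annotated genes was 11.5 ± 0.468% (SD, n = 3) on Laminin + Myelin, 11.3 ± 0.927% on Myelin and 11.8 ± 2.89% on Laminin, against 18.1 ± 1.13% on PDL. This share separates PDL from the coats as completely as Robo3 does, so coat and share cannot be told apart. With the share as a further term beside the block, the estimates for Robo3 were 0.19 ± 0.276 (SE), 0.29 ± 0.281 and 0.42 ± 0.264, and edgeR called 0 members and 0% of all genes against PDL on any coat. The 6 markers of commissural neurons, the cells in which Robo3 is known to act, summed to 212 to 251 CPM on Laminin + Myelin, 209 to 262 CPM on Myelin and 202 to 228 CPM on Laminin, against 191 to 261 CPM on PDL. These ranges overlapped. With the block, edgeR called 0 of the 6 commissural markers against PDL, beside 13.6, 14.4 and 8.15% of all genes on these coats. Cntn2, at 90.3 to 133 CPM, and Pou4f1, at 71.9 to 113 CPM, made up most of each sum. Lhx9 lay below the PDL library of the same number on every coat, at 1.65 to 3.23 CPM against 2.42 to 3.75 CPM. The other commissural markers each went both ways. Other markers did move with the coats. Microglial markers summed to 17.7 to 82.6 CPM on Laminin + Myelin, 20.6 to 89.0 CPM on Myelin and 19.7 to 62.6 CPM on Laminin, against 14.3 to 46.8 CPM on PDL, and 5, 6 and 3 of the 8 rose with the block. Markers of mural and mesenchymal cells summed to 59.2 to 74.4, 46.7 to 73.3 and 64.1 to 85.3 CPM on these coats, against 32.4 to 52.8 CPM on PDL, and 3, 2 and 2 of the 8 rose. Over all genes, 4.3, 4.37 and 2.66% were called higher on these coats with the block. The part of these markers in the differences of Robo3 and the other members was not tested.

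Epha10, an Eph receptor that lacks kinase activity (Entrez 230735, chromosome 4 at 124880899-124917800), had 197 to 603 reads per library. It had 8.95, 6.64 and 5.201 CPM on Laminin + Myelin, 8.15, 6.01 and 5.73 CPM on Myelin, and 6.10, 10.4 and 8.29 CPM on Laminin, against 12.4, 15.8 and 7.80 CPM on PDL. PDL replicate 3 was lower than the other PDL libraries and lay within the range of each coated group. With the block it fell by 0.77 ± 0.23 on the log2 scale on Laminin + Myelin, with an adjusted p of 0.0438, and by 0.82 ± 0.23 on Myelin, with an adjusted p of 0.0341. On Laminin the estimate was -0.50 ± 0.23 and did not pass, with an adjusted p of 0.147. Without 1 library the Epha10 call held in 2 of 6 fits in both comparisons with myelin, with adjusted p-values up to 0.221 and 0.219.

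Epha8, a receptor for A-class ephrins (Entrez 13842, chromosome 4 at 136929419-136956816), had 13.1, 8.47 and 9.40 CPM on Laminin + Myelin, 12.7, 8.91 and 8.36 CPM on Myelin, and 11.8, 14.7 and 12.0 CPM on Laminin. On PDL it had 17.2, 15.2 and 11.2 CPM. Replicate 3 of PDL lay below the highest library of each other coat, so the groups overlapped. With the block Epha8 fell by 0.54 ± 0.16 on the log2 scale on Myelin, with an adjusted p of 0.0391, and the estimate for Laminin + Myelin was -0.49 ± 0.15 with an adjusted p of 0.0546. The Myelin call held in 1 of 6 fits without a library, with adjusted p-values up to 0.215. With that outside share added as a term, the estimates of Epha10 were 0.92, 0.93 and 1.11 and those of Epha8 0.44, 0.43 and 0.74 for the 3 coats against PDL.

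Epha3, a receptor found on medial motor neurons of the developing cord (Entrez 13837, chromosome 16 at 63543534-63864175), moved the other way. It had 34.2, 38.1 and 35.2 CPM on Laminin + Myelin, 35.6, 40.8 and 36.2 CPM on Myelin, and 32.0, 34.6 and 31.9 CPM on Laminin, against 30.5, 29.8 and 30.8 CPM on PDL. Every coated library exceeded every PDL library. With the block it rose by 0.24 ± 0.07 on the log2 scale on Laminin + Myelin, with an adjusted p of 0.0410, and by 0.30 ± 0.07 on Myelin, with an adjusted p of 0.0156. On Laminin the estimate was 0.11 with an adjusted p of 0.282. The call held in 1 of 6 fits without a library for Laminin + Myelin, with adjusted p-values up to 0.193, and in 3 of 6 for Myelin, up to 0.118. With the outside share added as a term neither Epha3 call held, at 0.10 and 0.16 with adjusted p-values of 0.844 and 0.741. Of the 6 motor neuron markers tested, 1 rose and 1 fell on Laminin + Myelin, 2 rose on Myelin and none was called on Laminin with the block, with medians of 0.43, 0.46 and -0.06 on the log2 scale. Over all genes, 4.3, 4.37 and 2.66% were called higher on these coats and 9.26, 10 and 5.48% lower. The motor neuron marker sums overlapped, at 10.9 to 20.3, 12.9 to 20.6 and 13.7 to 20.1 CPM on these coats against 12.7 to 21.3 CPM on PDL. The part of these markers in the Epha3 result was not tested.

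Ntn1 (Entrez 18208, chromosome 11 at 68209364-68400823) had 300.1, 308 and 501 CPM on Laminin + Myelin, 323, 312 and 451 CPM on Myelin, and 269, 275 and 432 CPM on Laminin. On PDL it had 284, 265 and 386 CPM. Replicate 3 was the highest library of each coat, and the coats overlapped. With the block Ntn1 rose by 0.22 ± 0.07 on the log2 scale on Laminin + Myelin, with an adjusted p of 0.0475, and the estimate without it was 0.25 ± 0.25 with an adjusted p of 0.671. The Myelin estimate with the block was 0.21 ± 0.07 with an adjusted p of 0.0538. Leaving out any 1 library ended the Laminin + Myelin call, with adjusted p-values of 0.063 to 0.172. With the outside share added the estimate was 0.34 and the adjusted p 0.495. The 6 markers of floor plate, a tissue that secretes netrin-1, summed to 161 to 244 CPM on Laminin + Myelin, 150 to 238 CPM on Myelin and 137 to 210 CPM on Laminin, against 125 to 195 CPM on PDL. With the block, 3 of these 6 markers, Spon1, Shh and Foxa2, rose on Laminin + Myelin, where 4.3% of all genes were called higher. The part of these markers in the Ntn1 result was not tested.

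**Figure D2:**
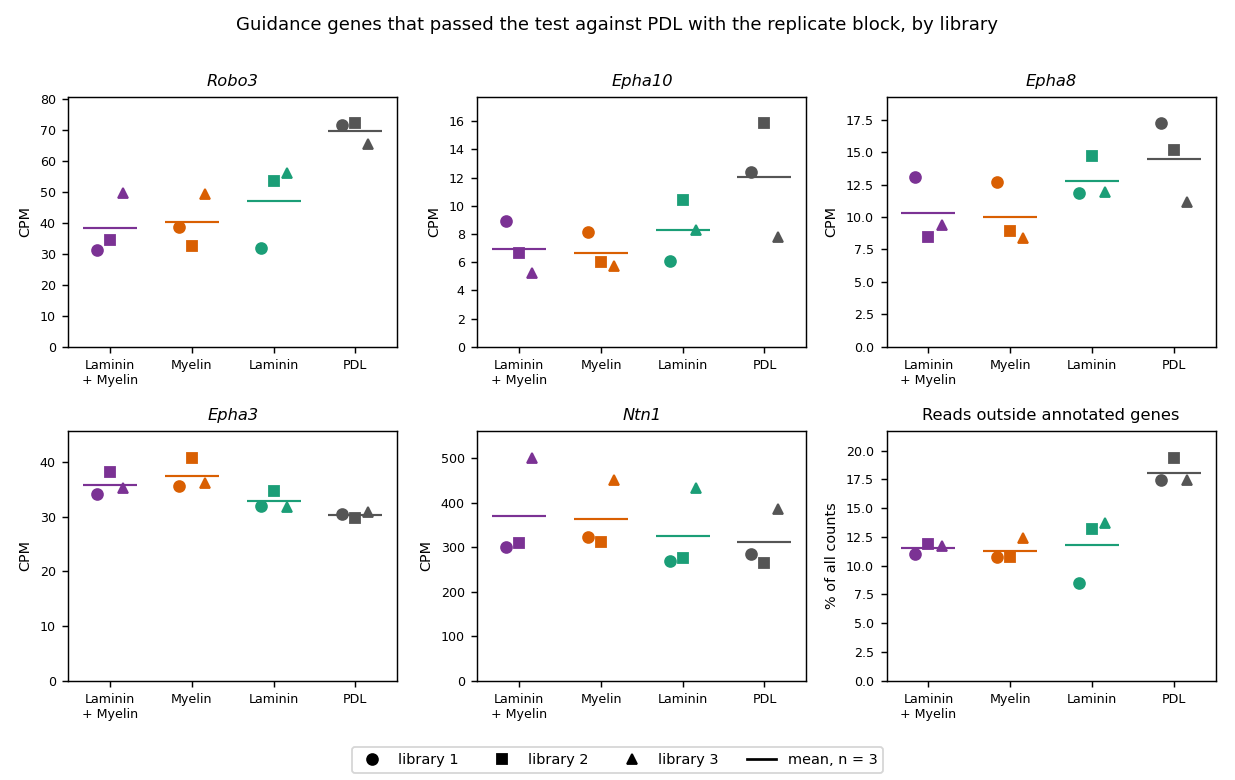
CPM of Robo3, Epha10, Epha8, Epha3 and Ntn1 and the percent of reads outside annotated genes in each of the 12 libraries, by coat. All 9 coated libraries lie below the 3 PDL libraries for Robo3, at 31.2 to 56.1 against 65.3 to 72.1 CPM, and above them for Epha3, and the outside share is highest on PDL.

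The other members called in no comparison with PDL included all ephrin ligands. Estimates with the block for all 3 ephrin-Bs were above 0 for all 3 coats, and none passed. Efnb1 had 37.7, 36.3 and 50.1 CPM on Laminin + Myelin, 40.9, 37.5 and 42.5 CPM on Myelin, and 36.8, 38.8 and 45.0 CPM on Laminin, against 35.9, 34.0 and 35.0 CPM on PDL. Each coated Efnb1 value was above each PDL value, and the adjusted p-values with the block in edgeR were 0.103, 0.144 and 0.154. Efnb2 came nearest to the threshold on Myelin, at 0.16 on the log2 scale with an adjusted p of 0.0682, and Efnb3 had 0.19 there with 0.0956. Efna2 and Efna3 had 0.25 and 0.26 on Laminin with adjusted p-values of 0.0725 and 0.0806.

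No Slit passed against PDL. Slit1 and Slit2 had estimates below 0 on each coat with and without the block, and Slit3 stood at -0.00 with it and 0.04 without it on Laminin + Myelin and below 0 on the other coats. Slit2 had 154, 169 and 210 CPM on Laminin + Myelin, 151, 149 and 193 CPM on Myelin, and 128, 156 and 208 CPM on Laminin, against 178, 165 and 226 CPM on PDL. Groups overlapped widely, since replicate 3 was highest on every coat. With the block, Slit2 stood at -0.22 on the log2 scale on Laminin, with an adjusted p of 0.0797, and at -0.20 on Myelin, with 0.0981. Dcc had 299, 319 and 288 CPM on Laminin + Myelin, 304, 356 and 268 CPM on Myelin and 240, 315 and 263 CPM on Laminin, against 346, 303 and 267 CPM on PDL, and these ranges overlapped. Robo4 had a log2 estimate of -1.19 on Laminin + Myelin with an adjusted p of 0.123, from at most 27 reads per library.

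**Figure D3:**
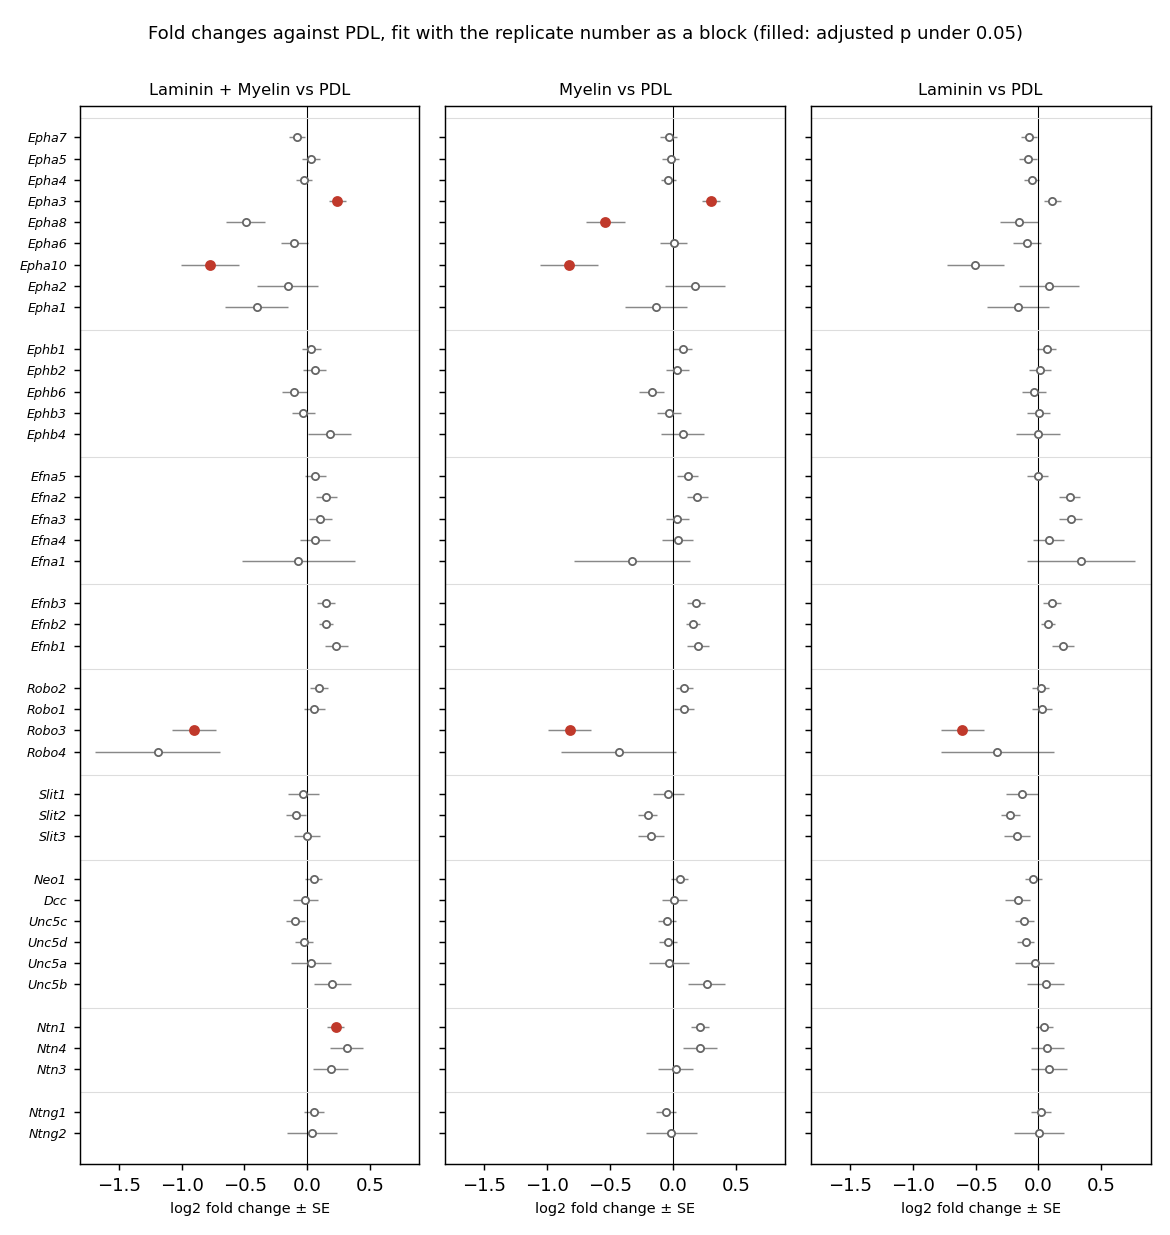
Log2 fold change against PDL with its SE for 40 members, in 1 panel per coat, from edgeR blocked by replicate number; filled points have an adjusted p under 0.05. Robo3 is filled in all 3 panels, at -0.90, -0.82 and -0.60, and the other filled points are those of Epha10, Epha8, Epha3 and Ntn1.

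Coats with myelin were also set against each other and against Laminin. For Laminin + Myelin against Laminin, 0 of 40 members were called by edgeR with or without the block, where 0.0191% and 0.102% of all genes were called without and with it, and DESeq2 called 0 members and 0.0381% of all genes. For Myelin against Laminin 0 members were called by either tool, where edgeR called 0.0254% of all genes without the block and 0.114% with it, and DESeq2 0.0572%. For Laminin + Myelin against Myelin, and for the interaction of myelin with laminin, both tools called 0 members and edgeR called 0% of all genes with or without the block, while DESeq2 called 0% and 0.0508%. At an unadjusted p under 0.05 with the block, the members numbered 1, 4, 0 and 3 in these 4 comparisons, beside 6.96, 8.17, 0.985 and 16.5% of all genes. Without the block they numbered 0, 1, 0 and 0, beside 1.28, 1.63, 0.184 and 6.62%. The largest interaction estimate among the Slits was that of Slit2, at 0.33 ± 0.11 on the log2 scale with an adjusted p of 0.237. A p that misses the threshold does not show that these coats were alike.

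Genes that act with these receptors were followed in 3 lists of 36 Eph and ephrin effectors, 24 Slit and Robo partners and 29 netrin receptor partners. Without the block no gene of these lists passed against PDL on any coat in edgeR. With it, the Eph effectors had 1 gene higher and 3 lower on Laminin + Myelin, 3 higher and 4 lower on Myelin, and 0 higher and 2 lower on Laminin, where 13.6, 14.4 and 8.15% of all genes were called. Rock1, a kinase that drives actomyosin contraction below Eph receptors, fell by 0.60, 0.64 and 0.69 on the log2 scale on these coats. Itsn2, a scaffold that activates Cdc42, fell by 0.38, 0.40 and 0.37. Grb7, an adaptor that binds EphB1, fell by 1.46 and 1.53 on Laminin + Myelin and Myelin. Rhoa, the small GTPase that activates Rock1, rose by 0.31 and 0.30 on the 2 coats with myelin. Nck2 and Rgs3 rose on Myelin by 0.23 and 0.30, and Pick1 fell by 0.27. The medians of the list were 0.04, 0.02 and -0.02, beside 0.02, 0.01 and 0.02 for all genes.

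Of the Slit and Robo partners, 2, 3 and 2 genes rose and 0 fell on Laminin + Myelin, Myelin and Laminin with the block. Over all genes, 4.3, 4.37 and 2.66% were called higher on these coats and 9.26, 10 and 5.48% lower. Nell2, a secreted ligand that repels commissural axons through Robo3, rose by 0.23, 0.24 and 0.21 on the log2 scale. Dag1, the laminin receptor that also binds Slits, rose by 0.25 on Laminin + Myelin and 0.27 on Myelin, Cap1 rose by 0.21 on Myelin, and Ndfip1, which directs Robo1 to degradation, rose by 0.41 on Laminin. The list medians were 0.06, 0.03 and 0.02. Of the netrin receptor partners, 4, 3 and 0 genes were called in either direction on these coats, beside 13.6, 14.4 and 8.15% of all genes. Rgma, a ligand of Neo1, rose by 0.35 on both coats with myelin, Lrrc4, the partner of netrin-G2, rose by 0.26 and 0.22, and Rac1, a GTPase below Dcc, rose by 0.24 on Laminin + Myelin. The medians of this list were 0.08, 0.07 and 0.05.

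The members differed more between replicate numbers than between coats. Netrin-1, Slit2 and Slit3 were higher in number 3, and Ntng1, Ephb1 and Unc5d lower than in number 1 on all 4 coats. With coat as a term, edgeR called 22 of 40 members between numbers 3 and 1, or 55.0%, where it called 43.9% of all genes. Of these, 9 were higher in number 3, against 23.1% of all genes, and 13 lower, against 20.8%. Between numbers 3 and 2 it called 11 members, or 27.5% against 15.6%, with 5 higher against 9.14% and 6 lower against 6.45%. Between numbers 2 and 1 it called 5, or 12.5% against 18.8%, with 1 higher against 11.4% and 4 lower against 7.35%. DESeq2 called 9 members there, or 22.5% against 21.2%. Single libraries moved the last 2 counts, and the shares of all genes moved with them. Numbers 3 and 2 differed in 17 members without Laminin replicate 1, in 7 without Laminin + Myelin replicate 3 and in 5 without Myelin replicate 2 or 3, beside 25.3, 8.74, 8.33 and 7.41% of all genes in these 4 fits. Numbers 2 and 1 differed in 17 members without Laminin replicate 1, beside 27.1% of all genes. They differed in 3 without Laminin + Myelin replicate 1 or 2 or Myelin replicate 1, beside 11.5, 11.9 and 11.2%. What a number stands for is not given in the sources used here. If a number is 1 preparation of cells, its 4 coats are not independent replicates. The SEs and p-values between numbers would then not measure the spread between preparations. Between numbers 3 and 1 the calls were spread over the roles. EphA receptors had 2 higher and 4 lower, EphB receptors 1 higher and 3 lower, and netrin receptors 0 higher and 3 lower, with all 6 netrin receptor estimates below 0.

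The promoters of Slit2 and Slit3, secreted ligands that both rose, are shown with the same motifs in capitals, Slit2 from the plus strand at chr5:47982905-47983204 and Slit3 from the plus strand at chr11:35121206-35121505.
Slit2: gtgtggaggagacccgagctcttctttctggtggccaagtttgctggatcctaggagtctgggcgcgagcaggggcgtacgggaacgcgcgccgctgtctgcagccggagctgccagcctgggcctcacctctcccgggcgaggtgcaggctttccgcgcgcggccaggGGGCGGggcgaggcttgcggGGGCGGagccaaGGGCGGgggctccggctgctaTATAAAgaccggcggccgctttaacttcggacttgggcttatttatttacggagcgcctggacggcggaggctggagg
Slit3: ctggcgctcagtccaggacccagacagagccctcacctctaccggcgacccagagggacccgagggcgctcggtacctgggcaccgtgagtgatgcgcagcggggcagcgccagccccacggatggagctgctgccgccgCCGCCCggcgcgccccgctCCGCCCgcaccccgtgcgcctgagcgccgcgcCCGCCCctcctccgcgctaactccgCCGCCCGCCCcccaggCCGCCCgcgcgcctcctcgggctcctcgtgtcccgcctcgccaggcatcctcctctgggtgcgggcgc
The Slit2 window held 1 TATAAA, shared with 1 other member, Efnb2, together 5.56% of matched members against 15.7% of genes, and 3 GC boxes, and the Slit3 window held 6 GC boxes.

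Among the secreted ligands, Ntn1 averaged 442 ± 47.5 CPM in number 3, 290 ± 23.4 CPM in number 2 and 294 ± 23.3 CPM in number 1 (SD, n = 4 coats each). Its log2 fold change for number 3 against 1 was 0.59 ± 0.06 (SE) with an adjusted p of 8.92e-06, and against number 2 it was 0.61 with an adjusted p of 4.8e-05. Slit2 (Entrez 20563, chromosome 5 at 47983138-48307733) averaged 209 ± 13.6, 160 ± 8.99 and 153 ± 20.3 CPM in numbers 3, 2 and 1. Slit2 rose by 0.46 ± 0.07 in number 3 against number 1, with an adjusted p of 0.000176. Slit3 (Entrez 20564, chromosome 11 at 35121224-35708507) had 38.6, 33.7, 34.4 and 33.6 CPM in number 3 on Laminin + Myelin, Myelin, Laminin and PDL, and 19.1, 17.9, 16.1 and 23.4 CPM in number 1. The number 3 libraries lay above those of number 1 for Ntn1, Slit2 and Slit3 without overlap. Slit3 rose by 0.88 ± 0.09 with an adjusted p of 9.99e-06, whereas Slit1 had an estimate of -0.01 with an adjusted p of 0.962.

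The largest rises in number 3 against 1 were in 2 genes of low count. Epha2, a receptor of epithelia and early embryonic tissue (11 to 102 reads per library), had 2.59, 2.46, 2.14 and 2.23 CPM in number 3 on Laminin + Myelin, Myelin, Laminin and PDL, and 0.259, 0.642, 0.694 and 0.521 CPM in number 1. All number 3 values exceeded all number 1 values, and Epha2 also rose in number 2 against number 1 with edgeR, by 1.92 with an adjusted p of 0.000147. Against number 1 it rose by 2.17 ± 0.22 in number 3, with an adjusted p of 1.06e-05. Efna1, its ligand, averaged 0.533 ± 0.0438 CPM in number 3 and 0.124 ± 0.107 CPM in number 1 and rose by 2.08 ± 0.41, with an adjusted p of 0.00142. Epha1, another epithelial receptor, rose by 0.89 ± 0.22 and Ephb4, the venous receptor of ephrin-B2, by 0.48 ± 0.15. Efnb2 rose by 0.14 ± 0.05 and Robo3 by 0.42 ± 0.15, with adjusted p-values of 0.031 and 0.0376. Robo3 was higher in number 3 on the 3 coated surfaces, by 0.67 on Laminin + Myelin, 0.35 on Myelin and 0.82 on Laminin, but stood at -0.13 on PDL, and the groups overlapped.

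The largest falls were in Ntng1, Ephb1 and Unc5d. Ntng1 had 12.9, 12.4, 14.1 and 13.4 CPM in number 3 on Laminin + Myelin, Myelin, Laminin and PDL, and 22.9, 21.2, 21.3 and 22.1 CPM in number 1. The number 2 libraries, at 15.9 ± 0.768 CPM, lay between those of numbers 3 and 1. Ntng1 fell by 0.73 ± 0.07 on the log2 scale in number 3 against 1, with an adjusted p of 5.79e-06. Ephb1, a receptor of ephrin-Bs, averaged 77.0 ± 4.84, 95.7 ± 6.46 and 115 ± 5.97 CPM in numbers 3, 2 and 1 and fell by 0.58 ± 0.07, with an adjusted p of 2.8e-05. Unc5d averaged 30.0 ± 0.605, 38.5 ± 0.731 and 44.1 ± 3.33 CPM and fell by 0.55 ± 0.06, with an adjusted p of 1.87e-05. Both also fell in number 2 against number 1 and in number 3 against number 2.

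Further Eph, Robo and netrin receptors were lower in number 3 than in number 1. Epha5 averaged 107 ± 4.25 CPM in number 3, 146 ± 3.52 CPM in number 2 and 145 ± 12.4 CPM in number 1, so numbers 2 and 1 stood together and number 3 apart. Epha5 fell by 0.44 ± 0.06 in number 3 against number 1, with an adjusted p of 0.000102. Epha6, Ephb6 and Ephb2 fell by 0.47, 0.47 and 0.35, Epha4 and Robo1 both by 0.27, Unc5a by 0.51 and Neo1 by 0.23, and Epha8 by 0.43. Of the ephrins Efna3 fell by 0.30, with an adjusted p of 0.00806. Dcc and Unc5c, at -0.12 and -0.09, did not pass, with adjusted p-values of 0.263 and 0.301, nor did Robo2 at -0.14 with 0.0735, Efna5 at -0.07 with 0.429 or Efnb3 at 0.14 with 0.0758. Efnb3 did rise in number 3 against number 2, by 0.23 with an adjusted p of 0.0239.

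Cell type markers moved with the replicate numbers as well. Between numbers 3 and 1, edgeR called 23.1% of all genes higher and 20.8% lower. The 8 neuronal markers summed to 8095 to 8245 CPM in number 3 and 9800 to 10426 CPM in number 1, and 7 of the 8 were lower in number 3. The progenitor markers summed to 755 to 981 CPM in number 3 and 468 to 573 CPM in number 1, and 7 of 8 were higher. Of the 6 floor plate markers 5 were higher in number 3, including Shh by 0.76 and Foxa2 by 1.43 on the log2 scale, with sums of 195 to 244 CPM in number 3 and 165 to 196 CPM in number 1. Commissural markers summed to 191 to 230 CPM in number 3 and 228 to 262 CPM in number 1, and 4 of 6 were lower. Endothelial markers stood at 11.2 to 12.9 CPM in number 3 and 3.88 to 5.41 CPM in number 1, with Cdh5 and Cldn5 under 0.1 CPM in every library. Microglial markers stood at 46.8 to 89.0 CPM in number 3 and 14.3 to 20.6 CPM in number 1, with 8 of 8 higher. The part of these markers in the members' differences between numbers was not tested.

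**Figure D4:**
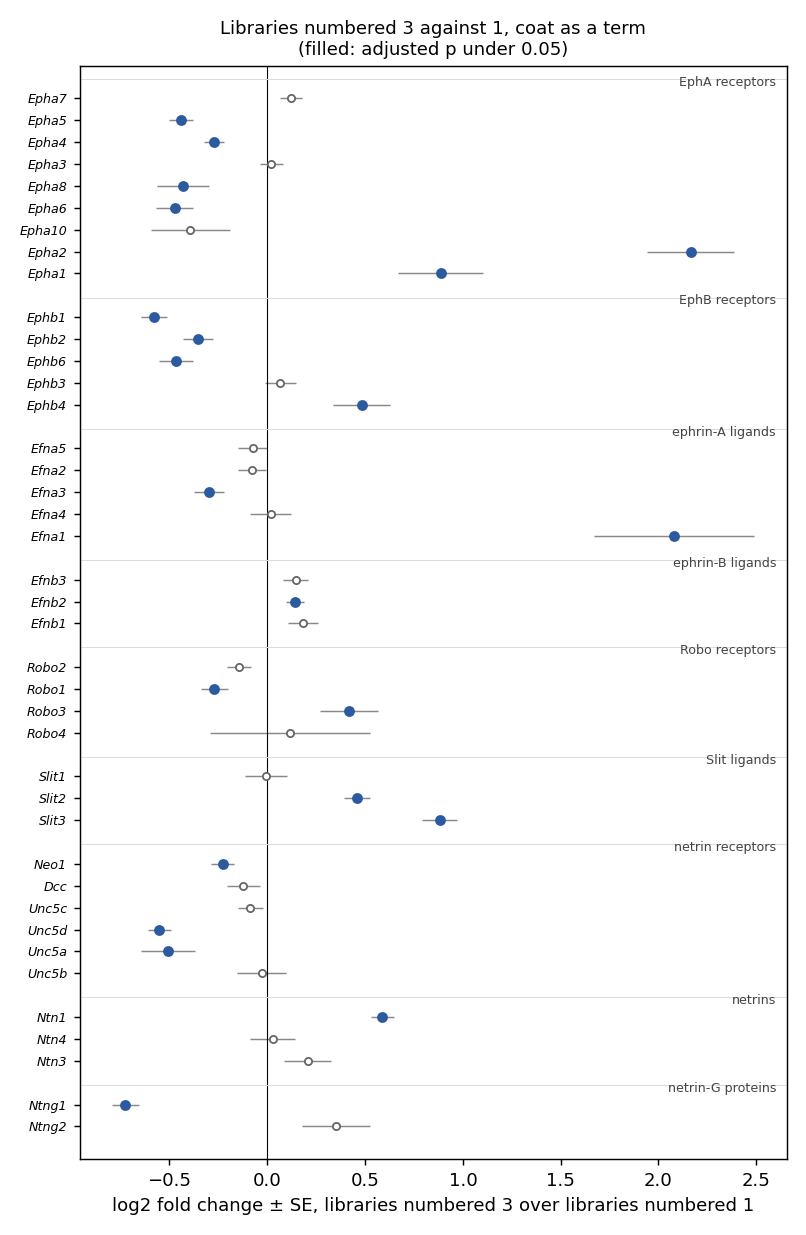
Log2 fold change of number 3 against number 1 with its SE for 40 members, from edgeR with coat as a term; filled points have an adjusted p under 0.05. Epha2 and Efna1 lie highest at 2.17 and 2.08, Epha1, Slit3 and Ntn1 follow at 0.89, 0.88 and 0.59, and Ntng1, Ephb1 and Unc5d lie lowest of those called, at -0.73, -0.58 and -0.55.

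**Figure D5:**
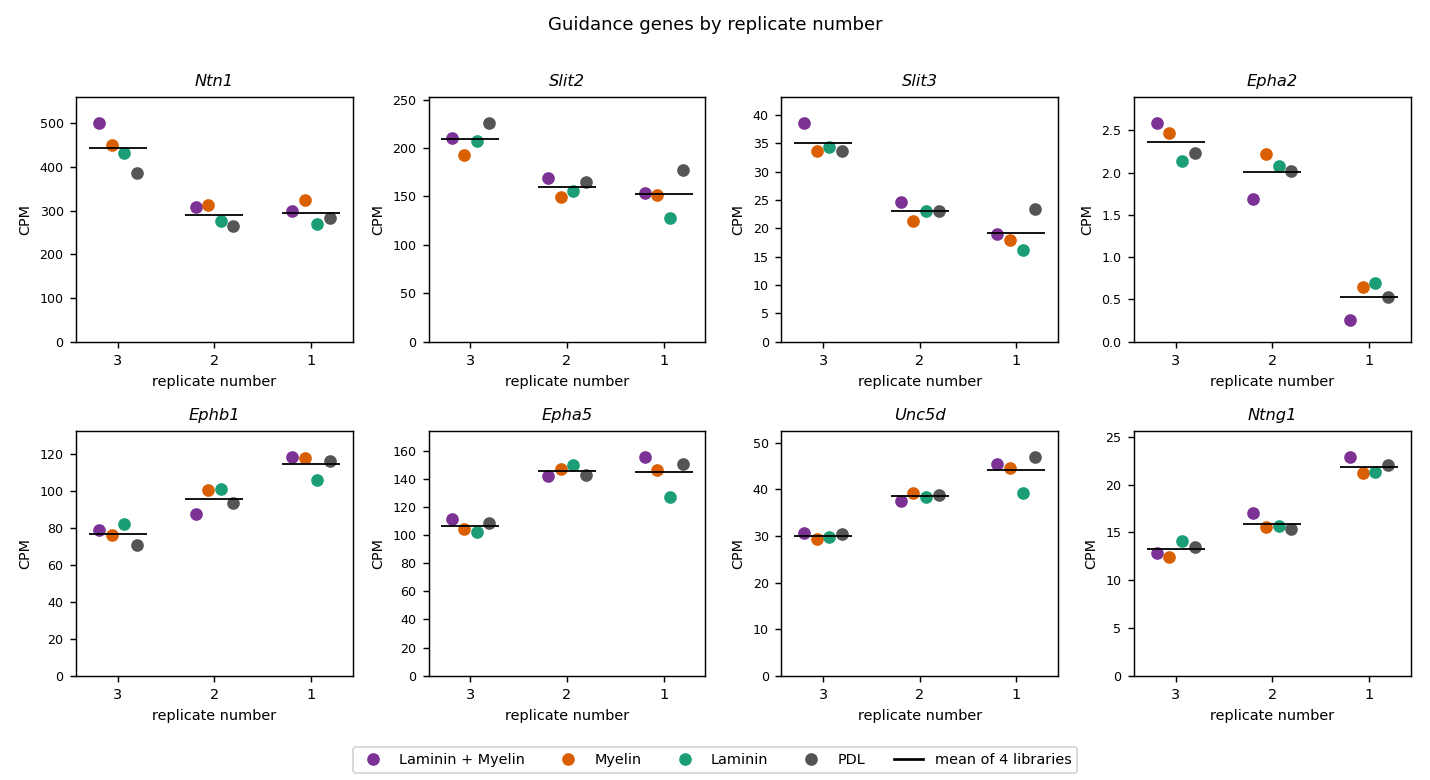
CPM of Ntn1, Slit2, Slit3, Epha2, Ephb1, Epha5, Unc5d and Ntng1 in the 12 libraries by replicate number, coloured by coat. The 4 coats of a number lie together, with Ntn1 at 386 to 501 CPM in number 3 and Ntng1 at 12.4 to 14.1 CPM there.

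The 3 partner lists also held more lower than higher genes in number 3 against 1. There 43.9% of all genes were called, 23.1% higher and 20.8% lower. Of the 36 Eph and ephrin effectors 6 were higher and 16 lower, with a median log2 fold change of -0.13 beside -0.01 for all genes. Grb10, an adaptor of receptor tyrosine kinases, and Inppl1, the lipid phosphatase SHIP2 that binds EphA2, rose by 1.07 and 1.00, and Ngef, the exchange factor ephexin-1, fell by 0.60. Of the 24 Slit and Robo partners 2 were higher, Prrg4 at 1.60 and Ext1 at 0.16, and 7 lower, among them Nell2 at -0.31, with a median of -0.16. Of the 29 netrin receptor partners 5 were higher, including Myo10, a myosin that carries Dcc, at 0.99 and Dock1 at 0.85. Of the same list 11 were lower, including Ablim3 at -1.10 and Ablim1 at -0.59, and its median was -0.15.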

How the data were processed

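RNA was sequenced as 12 paired-end TruSeq libraries, 3 for each of 4 coats. Read counts per gene were deposited by the authors in 1 table for the whole series. Per the submitters' processing notes, CASAVA 1.8.2 and edgeR were used and the build was mm10 (GRCm38); aligner, counter, annotation and strand setting were not given in the sources used here. The same table holds the authors' deposited log2 fold changes and p-values for comparisons of coats, which are quoted only where that table is named, and 12 columns of normalized values per library, which were not used. Of 21033 rows, 3 name no gene and entered neither library sizes nor tests. They hold reads outside annotated genes, at 8.46 to 19.4% of a library, reads without a unique position, at 11.5 to 13.6%, and reads shared by genes, at 0.579 to 0.717%.

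Members were found by symbol. Raw counts of all genes were fitted with edgeR 4.0.16 in R 4.3.3 (limma 3.58.1, statmod 1.5.0), with TMM scaling, its default expression filter and the robust quasi-likelihood test over all 4 coats, and p-values were adjusted by Benjamini and Hochberg over the 15737 genes left, with a threshold of 0.05. A permutation of 3 libraries against 3 cannot give an exact p below 0.1. No pair of replicate libraries agreed within sampling noise, with a chi-square per degree of freedom of 14.8 to 58.6. Replicate numbers were taken to pair libraries because all 18 same-number pairs correlated in their deviations from the coat means, at 0.218 to 0.83, while 36 pairs of different number and coat lay between -0.77 and 0.243. That reading comes from the counts and not from the labels. A fit with the number as a block, which lowered the biological coefficient of variation to 0.0901 from 0.205, stands beside the one without it. Numbers were compared with coat as a term.

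Levels are CPM with TMM scaling, and levels per kilobase divide by the longest coding transcript of each gene in GENCODE M21 on GRCm38. Promoters are RefSeq's. All members are accounted for by level. Named with values are those called in any coat comparison, the 3 highest of each role, the 3 largest rises and falls between numbers 3 and 1, and a set of well known members. One gene of a partner list is not reported here. Members, lists and tests were chosen with earlier results of these data known. Alternatives were DESeq2 1.42.0, its size-factor scaling within edgeR, no expression filter, no coat term for the numbers, the block, the outside share as a term, each library left out in turn, and, for levels, no division by length and, added after seeing the data, merged exon length. Python 3.11.15, numpy 2.4.6, pandas 2.3.3 and matplotlib 3.10.9 served for tables and plots.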

Additional observations from a re-analysis of the deposited data

How the results depend on the processing

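Values under other settings were compared for the counts of members called and for levels. Of these, 156 stayed within 1.5 times of those reported and 25 did not. Many of the 156 were comparisons of coats with 0 members called under both settings. Some of these fits called 0% of all genes, so their agreement was bound to occur. The replicate block changed the counts to 4 for Laminin + Myelin, 4 for Myelin and 1 for Laminin against PDL, and DESeq2 gave 1, 2 and 0. DESeq2 gave 9 members between numbers 2 and 1, beside 5, where it called 21.2% of all genes. Leaving out 1 library gave 0 members in each comparison of coats without the block, where at most 2.66% of all genes were called. With the block it gave 0 to 4 for Laminin + Myelin and for Myelin against PDL, and 0 to 1 for Laminin against PDL. In these fits 0.0877 to 14.2, 0.997 to 15.2 and 0 to 15.5% of all genes were called. Against Laminin it gave 0 to 1 for Laminin + Myelin and for Myelin, beside 0.0375 to 1.16 and 0.0564 to 2.1% of all genes. Between numbers it gave 18 to 27 members for 3 against 1, 5 to 17 for 3 against 2 and 3 to 17 for 2 against 1. Of all genes, 33.9 to 51.4, 7.41 to 25.3 and 11.2 to 27.1% were called in these fits. With the outside share of reads as a term beside the block, the estimates against PDL turned positive for Robo3 (0.19 on Laminin + Myelin, 0.29 on Myelin, 0.42 on Laminin), Epha10 (0.92, 0.93 and 1.11) and Epha8 (0.44, 0.43 and 0.74), and that of Epha3 on Laminin turned to -0.020. No gene of any kind passed against PDL with this term, so the Epha3 and Ntn1 calls ended as well. PDL libraries lie wholly above the others in this share, so coat and share cannot be told apart. Estimates also changed sign for Epha8 on Laminin with the block without Laminin replicate 1 (0.055), and without the block for Ntn1 on Laminin + Myelin without replicate 3 (-0.033) and on Laminin without Laminin replicate 3 (-0.19) or PDL replicate 2 (-0.041), where leaving out 1 library gave -0.19 to 0.25. The cause of these changes was not tested. Members with few reads, Epha2, Epha1, Robo4 and Efna1, have the least precise values, and Ntn5 could not be tested.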
